A study of Mus musculus with 4 samples.

Results

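Homeostatic microglia genes were followed across 4 RNA sequencing libraries of mouse lumbar spinal cord. The group holds 9 genes that mark microglia in the healthy central nervous system, P2ry12, P2ry13, Tmem119, Cx3cr1, Csf1r, Sall1, Siglech, Gpr34 and Olfml3. They were taken by name from the deposited table, in which all 9 of the 18674 gene names were found, each on 1 row. The libraries came from wild type (WT) mice given vehicle, WT mice given spermidine (SD, a natural polyamine), G93A mice given vehicle and G93A mice given SD, with 1 library per group. G93A mice carry a human SOD1 transgene with an amyotrophic lateral sclerosis mutation, and in the methods the G93A line is a high-expresser strain bred on a B6/SJLF1 background, with only male mice in the treatment studies. Per the RNA sequencing methods, mice were 100 days old after 30 days of SD or PBS, and the labels give 4 treatments per week. The SD dose is given as 5 mg/kg by intraperitoneal injection in the section on administration, which names saline as the vehicle. That section describes a longer dosing schedule, so its dose and vehicle may not be those of the sequenced mice. How many animals stand behind each library is not given, so the spread between animals is unknown, and no test between groups was run.

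Microglia are the resident macrophages of the spinal cord. In healthy tissue they carry a set of surface receptors and regulators that sense nucleotides, chemokines and growth factors and that depend on TGF-beta signalling. In disease models, microglia are known to multiply and to switch towards a disease-associated state with phagocytic and lysosomal genes, in which the homeostatic set is turned down per cell. In bulk tissue, more cells of a type and more RNA per cell cannot be told apart, and this holds for every level below.

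P2ry12 and P2ry13 encode receptors for ADP and lie next to each other on the minus strand of chromosome 3, inside the Med12l gene, which runs on the plus strand. On GRCm38 (GENCODE M21), the listed P2ry13 transcript spans chr3:59207892-59210882 with 2 exons and that of P2ry12 spans chr3:59216359-59262831 with 4 exons. Their promoters are shown because these neighbouring receptor genes had unlike differences between the genotypes, and that of Cx3cr1 because it was among the highest of the 9 genes in G93A cord. RefSeq promoter entries (GRCm38.p6, from 250 bases before to 50 bases after the start) were matched for 6 of the 9 genes. Capitals mark GAGGAA or its reverse complement TTCCTC, the core of the PU box to which the microglial transcription factor PU.1 binds, searched on both strands. The P2ry12 entry is chr3:59262936-59263235, the P2ry13 entry is chr3:59210833-59211132 and the Cx3cr1 entry is chr9:120068247-120068546, all on the minus strand. The P2ry13 and Cx3cr1 entries hold the starts of their listed transcripts. The P2ry12 entry lies upstream of the start of its listed transcript at 59262831 and does not hold it, so its window is that of another start.
P2ry12: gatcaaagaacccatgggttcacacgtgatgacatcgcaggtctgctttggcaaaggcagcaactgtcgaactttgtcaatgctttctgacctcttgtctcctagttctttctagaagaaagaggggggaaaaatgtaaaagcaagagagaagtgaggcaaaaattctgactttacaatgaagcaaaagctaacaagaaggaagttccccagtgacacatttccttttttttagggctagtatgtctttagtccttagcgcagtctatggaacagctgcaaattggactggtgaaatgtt
P2ry13: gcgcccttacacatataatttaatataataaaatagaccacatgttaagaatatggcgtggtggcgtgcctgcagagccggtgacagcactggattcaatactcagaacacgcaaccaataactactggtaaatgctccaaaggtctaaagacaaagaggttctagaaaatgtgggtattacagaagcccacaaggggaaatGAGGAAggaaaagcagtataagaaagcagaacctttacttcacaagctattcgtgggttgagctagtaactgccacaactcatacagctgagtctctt
Cx3cr1: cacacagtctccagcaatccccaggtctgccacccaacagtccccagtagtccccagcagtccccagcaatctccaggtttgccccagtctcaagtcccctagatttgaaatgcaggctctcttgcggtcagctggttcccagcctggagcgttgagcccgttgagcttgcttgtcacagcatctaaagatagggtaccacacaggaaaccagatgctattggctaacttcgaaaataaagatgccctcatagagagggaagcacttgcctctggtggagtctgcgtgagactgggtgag
The motif occurred 1 time in the window of P2ry13 and 1 time in that of Siglech, and in 0 of the windows of P2ry12, Cx3cr1, Sall1 and Olfml3. Of all 32851 promoter entries of the same length, 28.3% hold it, and 2 of the 8 entries of these genes did. A match of letters describes the sequence and is not evidence of binding.

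**Figure D1:**
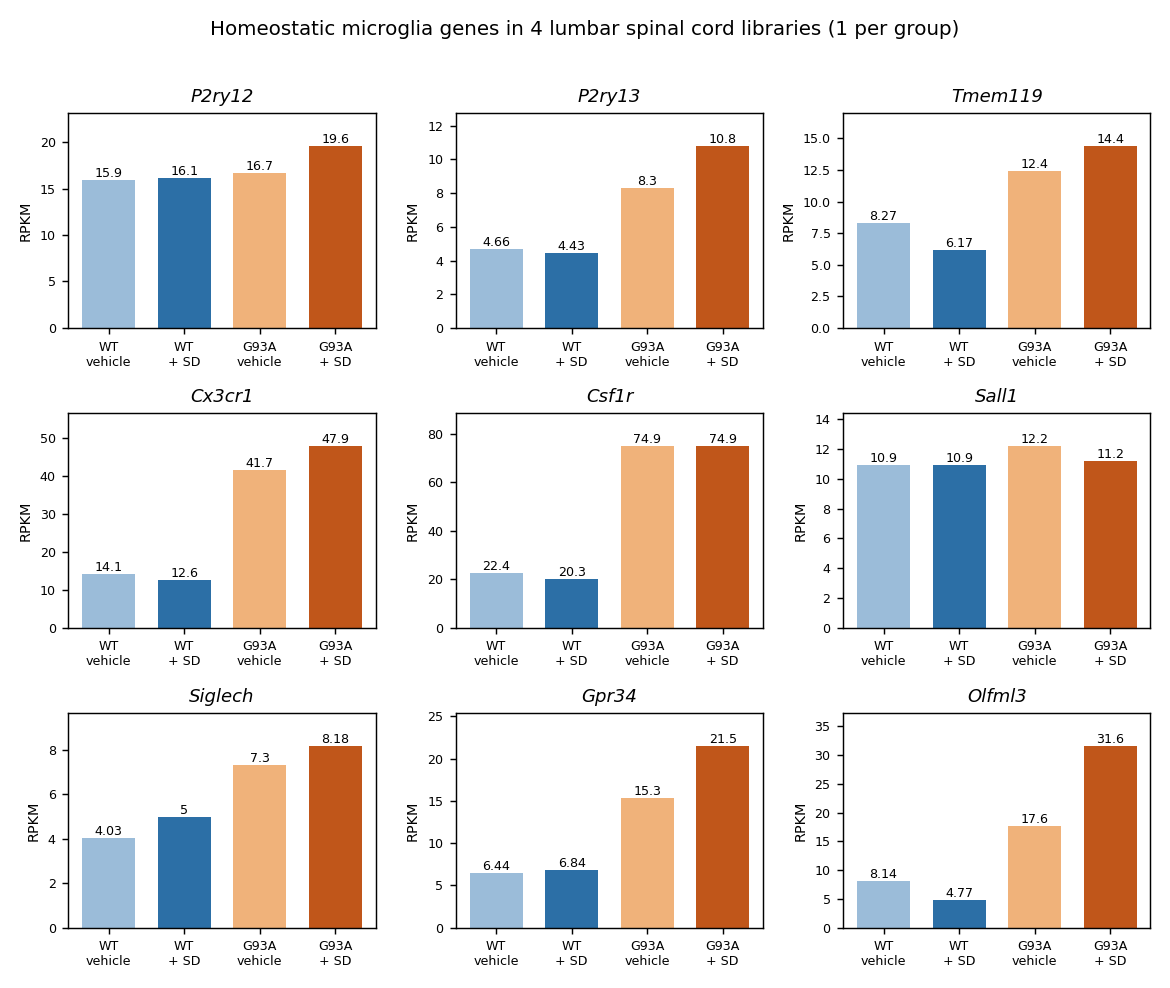
Level of each of the 9 homeostatic microglia genes (y axis, RPKM, a separate linear scale from 0 for each gene) in the 4 libraries (x axis), 1 bar per library and no error bars since each group has 1 library. Both orange G93A bars stand above both blue WT bars for every gene, by a margin of only 0.248 RPKM for Sall1 and 0.562 RPKM for P2ry12 and of 52.4 RPKM for Csf1r.

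The G93A cord held more RNA of most homeostatic microglia genes than WT cord, but to very unequal extents, with Csf1r and Cx3cr1 about 3-fold higher and P2ry12 and Sall1 nearly level. Levels are in RPKM, which corrects reads for transcript length and library size, and log2 fold changes are of RPKM plus a pseudocount of 0.1. In G93A vehicle against WT vehicle, 6 of the 9 genes were at least 1.5-fold higher and 0 were lower, where 14.4% of all gene names were higher and 5.31% were lower by that size. Among gene names with a mean of at least 1 RPKM, which all 9 genes have, 13.1% were higher. The median log2 fold change of the 9 genes was 0.84, against 0.046 over all gene names. Both G93A libraries were above both WT libraries for 9 of the 9 genes, which was also so for 39.7% of all gene names and for 43.7% of those with a mean of at least 1 RPKM. With median-ratio scaling this held for 7 of the 9, since P2ry12 and Sall1 then overlapped between the genotypes.

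Among the growth factor and chemokine receptors, Csf1r, the receptor for the survival factors CSF1 and IL-34, had 22.4 RPKM (vehicle) and 20.3 RPKM (SD) in WT cord, and 74.9 RPKM (vehicle) and 74.9 RPKM (SD) in G93A cord. The WT libraries lay close to each other and the G93A libraries were level, with no overlap between the genotypes. The log2 fold change of Csf1r was 1.74 in G93A vehicle against WT vehicle, the largest of the 9 genes in that comparison, and 1.88 in G93A + SD against WT + SD. Cx3cr1, the receptor for the neuronal chemokine fractalkine, had 14.1 RPKM (vehicle) and 12.6 RPKM (SD) in WT cord, and 41.7 RPKM (vehicle) and 47.9 RPKM (SD) in G93A cord. Its log2 fold change was 1.56 under vehicle and 1.92 under SD. Csf1r and Cx3cr1 were thus the most abundant of the 9 genes in both G93A libraries, whereas P2ry12 stood above Cx3cr1 in both WT libraries. The listed Csf1r transcript lies on chr18:61105572-61131134 with 22 exons on the plus strand, and that of Cx3cr1 on chr9:120048683-120068296 with 2 exons on the minus strand.

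The nucleotide and lipid receptors did not move as a block. P2ry12, the ADP receptor that draws microglial processes to sites of injury, had 15.9 RPKM (vehicle) and 16.1 RPKM (SD) in WT cord, and 16.7 RPKM (vehicle) and 19.6 RPKM (SD) in G93A cord. These 4 values lie near each other, and the log2 fold change between the genotypes was 0.067 under vehicle and 0.28 under SD, neither of which reaches 1.5-fold. P2ry13, the neighbouring ADP receptor, had 4.66, 4.43, 8.30 and 10.8 RPKM in the same order. It was 1.78-fold higher in G93A under vehicle and 2.44-fold higher under SD, with no overlap between the genotypes. The ratio of P2ry12 to P2ry13 was therefore 3.41 in WT vehicle and 3.63 in WT + SD, against 2.01 in G93A vehicle and 1.81 in G93A + SD. Gpr34, a receptor for lysophosphatidylserine, had 6.44 RPKM (vehicle) and 6.84 RPKM (SD) in WT cord, and 15.3 RPKM (vehicle) and 21.5 RPKM (SD) in G93A cord. It stood above P2ry12 in G93A + SD and below it in the other 3 libraries, and its log2 fold change was 1.23 under vehicle and 1.64 under SD.

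Among the surface and secreted proteins, Tmem119, a membrane protein used to tell microglia from blood macrophages, had 8.27 RPKM (vehicle) and 6.17 RPKM (SD) in WT cord, and 12.4 RPKM (vehicle) and 14.4 RPKM (SD) in G93A cord. Under vehicle its log2 fold change of 0.58 fell just short of the 1.5-fold threshold, which it passed with a value of 0.59 when no pseudocount was added. Under SD it was 1.21, with the lower WT + SD value in the denominator. Siglech, a sialic acid binding lectin that signals through the adaptor Tyrobp, had 4.03 RPKM (vehicle) and 5.0 RPKM (SD) in WT cord, and 7.30 RPKM (vehicle) and 8.18 RPKM (SD) in G93A cord. It was the least abundant of the 9 genes in WT vehicle and in both G93A libraries, and its log2 fold change was 0.84 under vehicle and 0.70 under SD. Olfml3, which encodes a secreted olfactomedin-like protein, had 8.14 RPKM (vehicle) and 4.77 RPKM (SD) in WT cord, and 17.6 RPKM (vehicle) and 31.6 RPKM (SD) in G93A cord. It differed most between libraries of 1 genotype, and its log2 fold change was 1.11 under vehicle and 2.70 under SD.

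Sall1, the zinc finger transcription factor that upholds microglial identity and is also made by other neural cells, differed least of the 9 genes over the 4 libraries, although P2ry12 differed less between the vehicle libraries. It had 10.9 RPKM (vehicle) and 10.9 RPKM (SD) in WT cord, and 12.2 RPKM (vehicle) and 11.2 RPKM (SD) in G93A cord. Its log2 fold change was 0.16 under vehicle and 0.034 under SD, and with median-ratio scaling the latter turned to -0.032. Other regulators of microglial genes varied in their difference. Of 12 transcription factors of microglia, 8 were at least 1.5-fold higher in G93A vehicle and 0 were lower, with a median log2 fold change of 1.35. Cebpa, which directs myeloid development, had 2.09 RPKM (vehicle) and 2.22 RPKM (SD) in WT cord, and 11.9 RPKM (vehicle) and 13.2 RPKM (SD) in G93A cord. Of the other 3 most abundant factors, Smad3 had a log2 fold change of 1.14 under vehicle, while Bhlhe41 had 0.30 and Mef2a had -0.001. Spi1, which encodes PU.1 and is named here because of the motif above, had 1.76 RPKM in WT and 7.44 RPKM in G93A cord under vehicle.

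**Figure D2:**
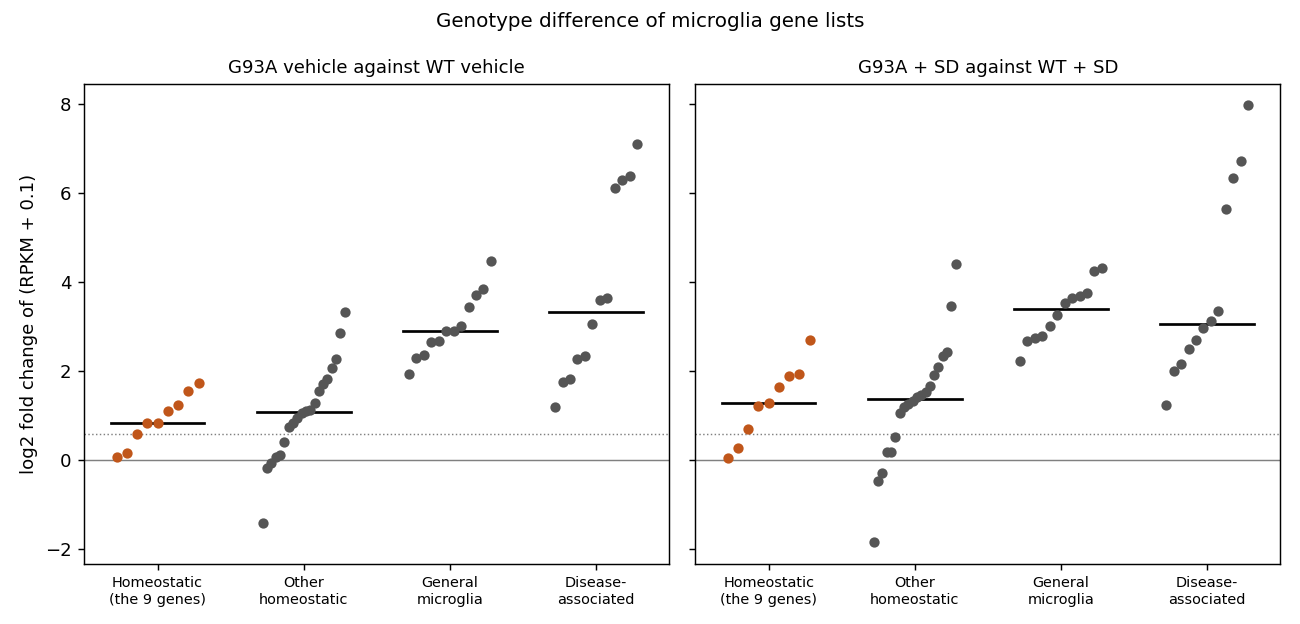
Log2 fold change of RPKM plus 0.1 between the genotypes (y axis) under vehicle (left panel) and under SD (right panel), 1 point per gene, for the 9 homeostatic genes (orange), 20 other homeostatic genes, 12 general microglia genes and 12 disease-associated genes (grey). Black lines are medians and the dotted line is 1.5-fold; the homeostatic genes reach from 0.067 to 1.74 under vehicle, below the lowest general microglia gene at 1.94.

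The log2 fold changes of the 9 homeostatic genes between the genotypes lay mostly below those of 12 genes listed here as general microglia genes. Of 12 general microglia genes, 12 were at least 1.5-fold higher in G93A vehicle, with log2 fold changes from 1.94 (Itgam) to 4.47 (Cd68) and a median of 2.90. The highest of the homeostatic genes, Csf1r, lay below the lowest of these, so that 9 of 9 were below that range under vehicle. Under SD it was 8 of 9, as Olfml3 passed the lowest general gene, which had 2.22. Ctss, which encodes the lysosomal protease cathepsin S, went from 50.4 RPKM in WT vehicle to 320 RPKM in G93A vehicle. C1qa, C1qb and C1qc, which encode the chains of complement C1q, had log2 fold changes of 3.43, 3.0 and 2.90. Of 12 disease-associated microglia genes, 12 were also higher, with a median of 3.32. Apoe, Ctsd, Spp1 and Cd9 were the most abundant of these, with log2 fold changes of 1.75, 3.05, 2.34 and 2.26 under vehicle. The general list holds lysosomal genes such as Ctss, so it is not neutral to the disease-associated state described above. It was also chosen with earlier results of these data known. With 1 library per group these differences between lists have no test.

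When each gene was divided by the geometric mean of the 12 general microglia genes in the same library, the 9 genes had lower ratios in G93A cord, which under vehicle follows from the ranges above and is given here for its size. That geometric mean was 7.62 RPKM (vehicle) and 6.54 RPKM (SD) in WT cord, and 61.4 RPKM (vehicle) and 65.2 RPKM (SD) in G93A cord. The ratio of P2ry12 was 2.09 (vehicle) and 2.47 (SD) in WT cord, and 0.271 (vehicle) and 0.30 (SD) in G93A cord. The ratio of Sall1 was 1.43, 1.67, 0.199 and 0.171 in the same order. Under vehicle, the G93A ratio was 0.130 of the WT ratio for P2ry12, 0.139 for Sall1 and 0.186 for Tmem119, the 3 lowest. It was 0.221 for P2ry13, 0.225 for Siglech, 0.269 for Olfml3, 0.294 for Gpr34, 0.369 for Cx3cr1 and 0.415 for Csf1r. Under SD the same quotient went from 0.103 for Sall1 to 0.664 for Olfml3. The ratio depends on which genes stand below the line, and it does not measure RNA per cell.

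**Figure D3:**
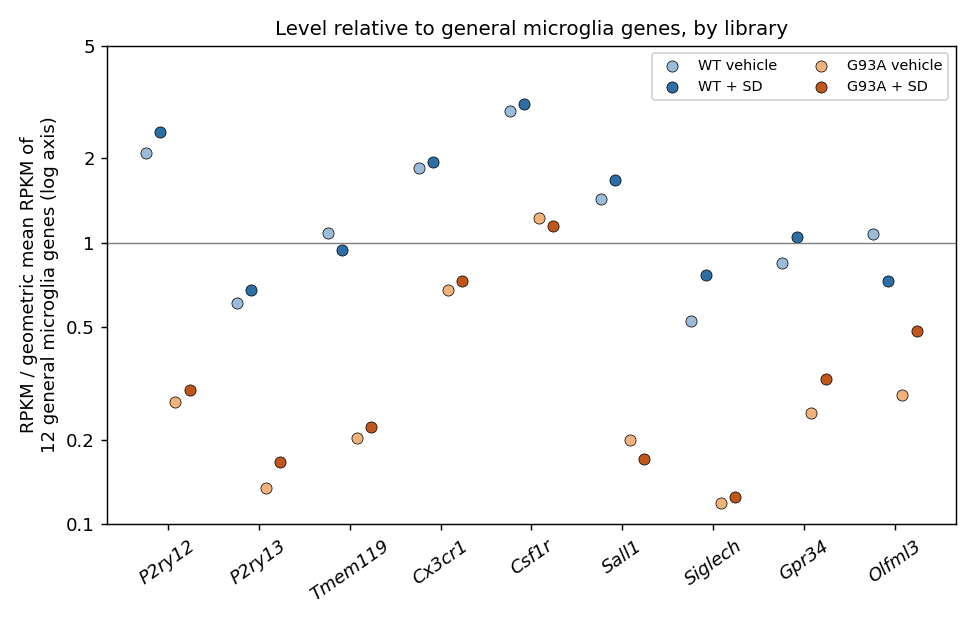
RPKM of each of the 9 genes (x axis) divided by the geometric mean RPKM of 12 general microglia genes in the same library (y axis, log axis), 1 point per library. For each gene both G93A points (orange) lie below both WT points (blue), and the gap is widest for P2ry12 and Sall1 and narrowest for Olfml3.

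A further 20 homeostatic microglia genes outside the 9 were spread more widely. Under vehicle 14 of them were at least 1.5-fold higher in G93A and 1 was lower, with a median log2 fold change of 1.08, and the numbers under SD were also 14 and 1, with a median of 1.37. Cst3, Sparc and Rhob were among the most abundant. Cst3, which encodes the protease inhibitor cystatin C and is made by other glia too, had 633 RPKM in WT and 1211 RPKM in G93A cord under vehicle. Rhob, a small GTPase gene found in many cells, had a log2 fold change of 0.069. The gene that was lower was Crybb1, a crystallin gene expressed by microglia, with 1.51 RPKM (vehicle) and 1.09 RPKM (SD) in WT cord, and 0.504 RPKM (vehicle) and 0.231 RPKM (SD) in G93A cord. At the other end, Fcrls, an Fc receptor-like gene of microglia, had 1.61 RPKM (vehicle) and 2.07 RPKM (SD) in WT cord, and 16.9 RPKM (vehicle) and 45.4 RPKM (SD) in G93A cord. Crybb1 and Fcrls were singled out after their values had been seen, as the ends of the list under vehicle and under SD.

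The ligands of the receptors did not differ together. Csf1, the CSF1R ligand made by neurons and glia, had 11.6 RPKM (vehicle) and 10.9 RPKM (SD) in WT cord, and 26.8 RPKM (vehicle) and 26.0 RPKM (SD) in G93A cord, without overlap between the genotypes. Il34, the other CSF1R ligand, was level at 5.66, 5.81, 5.88 and 5.99 RPKM. Cx3cl1, which encodes fractalkine, was lower in both G93A libraries, with 51.9, 50.6, 42.7 and 40.9 RPKM and a log2 fold change of -0.28 under vehicle that does not reach 1.5-fold. The ligand of Cx3cr1 was thus lower by that small amount where its receptor was 2.97-fold higher. Tyrobp, the adaptor of Siglech, had 9.67 RPKM in WT and 139 RPKM in G93A cord under vehicle, a log2 fold change of 3.83 where that of Siglech was 0.84. Entpd1 and Nt5e, which encode ectoenzymes that break ATP and ADP down to adenosine, had log2 fold changes of 1.06 and 0.63. Abhd12 and Abhd16a, whose products degrade and make lysophosphatidylserine, the ligand of GPR34, had log2 fold changes of 0.15 and -0.30 and stayed within 1.5-fold.

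Of 9 other purinergic receptors, 5 were at least 1.5-fold higher in G93A vehicle and 0 were lower. P2rx4 and P2rx7, ATP-gated ion channels of microglia, went from 6.59 to 11.4 RPKM and from 2.58 to 5.85 RPKM under vehicle. Adora1 and P2ry1, the other 2 of the most abundant, had log2 fold changes of -0.023 and -0.37. P2ry12 thus stayed near its WT level where P2rx4 and P2rx7 did not. In the TGF-beta pathway 7 of 12 genes were at least 1.5-fold higher under vehicle and 0 were lower. The receptor gene Tgfbr1 had 8.74 RPKM in WT and 21.2 RPKM in G93A cord under vehicle. Itgav and Itgb8, whose integrin activates TGF-beta, had log2 fold changes of 0.68 and 0.29, and Smad4, the shared mediator, had 0.22.

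Genes that lie around the 9 genes were looked at for shared reads. The exons of the 9 listed transcripts shared 0 bases with exons of any other annotated gene. Med12l, which spans P2ry12 and P2ry13, had 7.10 RPKM (vehicle) and 7.44 RPKM (SD) in WT cord, and 5.39 RPKM (vehicle) and 5.35 RPKM (SD) in G93A cord, lower in G93A where P2ry13 was higher. Cask, which spans Gpr34 on the opposite strand of chromosome X, had 10.1, 9.79, 9.27 and 9.41 RPKM. The neighbours of P2ry12 on chromosome 3 had low values. P2ry14 lay between 1.10 and 1.46 RPKM, and Gpr171 had 0.0787 RPKM or less. Gpr82, next to Gpr34, had 0.00942 RPKM or less, while Gpr34 reached 21.5 RPKM. Pdgfrb, next to Csf1r, had 2.89 RPKM in WT and 3.61 RPKM in G93A cord under vehicle. Of windows of 53 bases, the read length, 14 of 3701 (0.378%) in Cx3cr1 occurred in transcripts of other genes, and 0 did in the other 8 genes.

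Microglial genes are also found in other leukocytes, whose marker lists were looked at in turn. Summed over 6 blood monocyte genes, the level was between 0.383 and 0.772 RPKM over the 4 libraries, with Plac8 listed at 0 in WT vehicle and Ly6c2 at 0 in G93A vehicle. Ccr2, which defines those cells, had 0.0151 RPKM in WT and 0.135 RPKM in G93A cord under vehicle. Of 7 border macrophage genes 3 were at least 1.5-fold higher in G93A vehicle, and their sum went from 1.83 to 8.59 RPKM, of which Ms4a7 made up 5.67 RPKM. Under SD 5 of the 7 were higher and 0 were lower, with a sum of 1.49 RPKM in WT and 11.1 RPKM in G93A cord, of which Ms4a7 made up 7.52 RPKM. Mrc1, Cd163 and Lyve1, which define those cells, were each below 0.5 RPKM in every library, with Mrc1 at 0.105 RPKM in WT + SD against 0.466 RPKM in G93A + SD, a 4.45-fold difference. Under SD, Pf4 was 5.85-fold, Cbr2 2.55-fold and Stab1 1.85-fold higher. The part of border macrophages in the levels of the 9 genes was not tested. Summed over 5 neutrophil genes the level was 2.46 RPKM in G93A vehicle and between 0.822 and 1.09 RPKM in the other 3 libraries. Of these genes 2 were at least 1.5-fold higher in G93A under vehicle, with S100a9 going from 0.328 to 1.27 RPKM, and 2 were under SD. Plasmacytoid dendritic cells also carry Siglech, and their genes Ccr9, Ly6d and Klk1 were each below 0.2 RPKM in every library, while Bst2 went from 2.40 to 9.64 RPKM and Cox6a2 from 0.238 to 1.62 RPKM under vehicle. Genes of dividing cells were higher, with 6 of 6 at least 1.5-fold higher in G93A vehicle. Mki67 went from 0.225 to 2.25 RPKM and Top2a from 0.339 to 3.0 RPKM. The part of dividing cells in the levels above was not tested.

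Genes of neural tissue were seen in every library. No marker of region along the nervous system was examined, so identity as spinal cord rests on the labels and methods. Neuronal, astrocyte and oligodendrocyte genes, led by Snap25, Gfap and Mbp, were all detected. Under vehicle, 1 of 4 neuronal genes was lower by at least 1.5-fold in G93A cord and 3 were between, of 4 astrocyte genes 4 were higher, and of 4 oligodendrocyte genes 0 were past that size. Of 6 motor neuron genes 2 were lower and 0 were higher. Under SD 2 of the 4 neuronal, 4 of the 6 motor neuron and 1 of the 4 oligodendrocyte genes were lower, and 4 of the 4 astrocyte genes were higher. The part of these cell types in the levels of the 9 genes was not tested. The sum of RPKM was between 376852 and 393328, and depth was estimated at 36800000 to 38600000 reads or read pairs per library. Between 317 (Siglech in WT vehicle) and 11186 (Csf1r in G93A + SD) reads or read pairs were estimated behind each value of the 9 genes.

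Under SD the difference between the genotypes was of the same direction in all 9 genes as deposited and was wider in 7 of them, all but Sall1 and Siglech. Of the 6258 gene names that averaged at least 1 RPKM and were higher in G93A by any amount in both comparisons, 64.5% were also wider under SD. The share among the 9 genes was 77.8%, so the count of 7 is not far from the background. In G93A + SD against WT + SD, 7 of the 9 were at least 1.5-fold higher and 0 were lower, where 17.1% of all gene names were higher and 7.82% lower, and 15.8% of those with a mean of at least 1 RPKM were higher. The median log2 fold change was 1.27. The gene that joined the 6 under SD was Tmem119. Other lists also had wider medians under SD, going from 2.90 to 3.38 for general microglia genes, from 1.02 to 1.42 for astrocyte genes, from -0.47 to -0.61 for neuronal genes and from -0.47 to -0.74 for motor neuron genes. That of disease-associated genes went from 3.32 to 3.05. The part of these cell types in the wider difference was not tested. These libraries are not those of the vehicle comparison. The 2 genotype comparisons differ in treatment and each has 1 library per group, so they are not replicates of each other.

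The comparison of SD with vehicle asks whether the polyamine moved these genes within a genotype. In WT cord 0 of the 9 genes were at least 1.5-fold higher and 1 was lower, Olfml3, which was 0.585 of its vehicle level. Over all gene names 2.25% were higher and 2.80% were lower, and of those with a mean of at least 1 RPKM 0.732% were higher and 1.16% were lower. The other 8 genes had log2 fold changes from -0.42 for Tmem119 to 0.30 for Siglech, and the median over the 9 genes was -0.070. In G93A cord 1 of the 9 genes was at least 1.5-fold higher, again Olfml3, at 1.79-fold, and 0 were lower, against 2.97% and 2.55% of all gene names and 1.24% and 0.932% of those that averaged at least 1 RPKM. The other 8 genes had log2 fold changes from -0.13 for Sall1 to 0.49 for Gpr34, with a median over the 9 genes of 0.21 where that over all gene names was 0.007. Of the 9 genes 7 were above and 2 below their vehicle level by any amount in G93A, Csf1r by a log2 fold change of only -0.001. General microglia genes had a median of 0.13 in the same comparison, with 9 of 12 above. Astrocyte genes had 0.23, with 4 of 4 above. Neuronal genes had -0.25, with 3 of 4 below, and motor neuron genes had -0.43, with 5 of 6 below. The part of these cell types in the change of the 9 genes was not tested. At a 2-fold threshold 0 of the 9 genes differed between SD and vehicle in either genotype. The G93A vehicle library serves in both the genotype and the SD comparison.

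**Figure D4:**
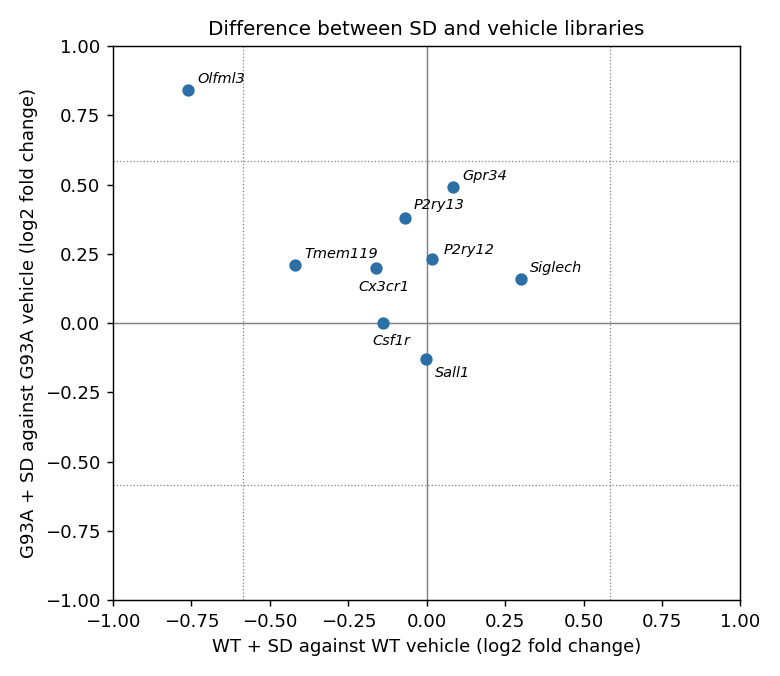
Log2 fold change of RPKM plus 0.1 between SD and vehicle in WT cord (x axis) and in G93A cord (y axis), 1 point per gene, with dotted lines at 1.5-fold. Olfml3 is the only point past both dotted lines, at -0.76 in WT and 0.84 in G93A, and the other 8 genes lie inside them.

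The genes whose levels across the 4 libraries were closest to the median of the 9 genes were sought among 8838 other gene names with a mean of at least 5 RPKM. Likeness was the root mean square distance between log2 levels centred on each gene's own mean, over 4 libraries. The 5 closest were Sparc at a distance of 0.0464, Fam189a2 at 0.0484, Slc7a2 at 0.0533, Cox7a1 at 0.0546 and Vwa1 at 0.0599. Sparc, which encodes a matrix-associated protein of microglia, astrocytes and endothelium, had 459 RPKM (vehicle) and 409 RPKM (SD) in WT cord, and 816 RPKM (vehicle) and 1027 RPKM (SD) in G93A cord. With 4 values per gene, many genes lie near each other by this measure.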

How the data were processed

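RNA from the lumbar spinal cord was measured in 4 libraries, 1 per group, with groups taken from the sample titles. Per the methods, STAR alignment to GRCm38 by the authors was followed by HTSeq counting over Ensembl genes. The deposited table gives RefSeq transcripts in 23750 rows, and how its values were derived is not given in the sources used here. The values deposited by the authors were taken as RPKM, a unit inferred because values multiplied by transcript length (known for 97.0% of rows) gave similar totals in each library. The ratio columns hold the authors' own comparisons and were not used, and 0 other value columns were left unmapped.

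Values of a gene name were averaged over its rows. Log2 fold changes used a pseudocount of 0.1 RPKM with no filter, and a 1.5-fold difference was counted. Depth was read from the commonest step of low values multiplied by transcript length. That step was taken as 1 read or read pair, as the sources used here do not say which was counted. Lengths are those of the GENCODE M21 transcripts, so numbers of reads or read pairs are estimates. Members and gene lists were chosen with earlier results of these data known. All 9 members are named, with the 4 most abundant genes of each microglia pathway or type list, all ligands and neighbours, and the 5 genes most like the members. A few genes that this rule names are not reported here, though they stay in the counts of their lists. Blood cell, dividing cell, neuronal, astrocyte and oligodendrocyte lists are given more briefly, with fewer than 4 names in some. Spi1, Crybb1, Fcrls, the ends of a list's range and defining markers of border macrophages and plasmacytoid dendritic cells were named beyond that rule. Older symbols were used to match 5 genes of the lists. Alternatives were pseudocounts of 1 RPKM and 0, a mean of at least 1 RPKM, median-ratio scaling, the highest row of a name and a 2-fold threshold. Python 3.11.15 ran the calculations with pandas 2.3.3 and numpy 2.4.6, matplotlib 3.10.9 drew the plots, and the counting of fold changes was tested on simulated data with counting error only, which does not cover the spread between animals.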

Additional observations from a re-analysis of the deposited data

Results flagged for a closer look

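In 4 of the 9 genes the SD library lay on opposite sides of its vehicle library in WT and in G93A cord, and with 1 library per group this difference between the genotypes was not tested. Opposite sides were also seen for 45.8% of the gene names with a mean of at least 1 RPKM, so the count of 4 is near the background. The log2 change with SD in G93A minus that in WT was 1.60 for Olfml3, 0.63 for Tmem119, 0.45 for P2ry13 and 0.35 for Cx3cr1. For Olfml3 each of these changes was past 1.5-fold, at -0.76 in WT and 0.84 in G93A. For the other 3 genes neither was, and the change of P2ry13 in WT was only -0.070.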

How the results depend on the processing

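With a 2-fold threshold, the number of the 9 genes higher in G93A went from 6 to 4 under vehicle and from 7 to 6 under SD. The number lower in WT + SD went from 1 to 0 and the number higher in G93A + SD against G93A vehicle went from 1 to 0. Without a pseudocount, Tmem119 passed 1.5-fold in G93A vehicle against WT vehicle, with 0.59 on the log2 scale, which took the number higher from 6 to 7, as the deposited ratio lies almost at the threshold. With median-ratio scaling, Sall1 in G93A + SD against WT + SD turned from 0.034 to -0.0318. That scaling moved the median of all gene names by -0.046 and -0.050 in the genotype comparisons. It took the number of genes with both G93A libraries above both WT libraries from 9 to 7. The other log2 fold changes of the 9 genes kept their direction and their side of 1.5-fold under the alternatives that recomputed them. The pseudocount of 1 RPKM, the mean of at least 1 RPKM and the highest row of a name moved no call of the 9 genes. With 1 library per group no replicate could be left out. The labels name no pairing of animals or libraries, and no paired analysis was run. A fit of genotype plus treatment over the 4 libraries, whose only error term would be the interaction of both, was not run. Each of the 9 genes has an estimated 317 reads or read pairs or more in every library, and the spread between animals was not measured.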
